A study of Mus musculus with 36 samples.

Results

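The genes that make, sense and clear extracellular adenosine were examined in 3 kinds of cells sorted from the skeletal muscle of juvenile mice. They are the adenosine receptors Adora1, Adora2a, Adora2b and Adora3, the ectonucleotidases Entpd1, Entpd2 and Nt5e, and the genes of adenosine clearance Slc29a1, Adk and Ada. These 10 of the 52636 genes of the count table were taken by symbol, and each symbol matched 1 Ensembl identifier. Tg(Cspg4-DsRed.T1)1Akik/J and B6;D2-Tg(S100b-EGFP)1Wjt/J mice were crossed (genotype S100β-GFP;NG2-dsRed), so all 3 groups carry both reporters. GFP marks cells that use the S100b promoter, and dsRed marks cells that use the promoter of Cspg4, the gene encoding NG2. FACS of diaphragm, pectoral, forelimb and hindlimb muscle gave S100β-GFP+;NG2-dsRed+ perisynaptic Schwann cells (PSCs), S100β-GFP+ cells and NG2-dsRed+ cells. The animals were between postnatal days 15 and 21 by the methods of the study. The second number in the labels climbs by 1 from library to library, from 21 to 46, and then stays at 46, so it is not used as an age here. Each replicate was the cells of a single mouse, RNA was amplified with SMART-Seq v4, and the labels do not say whether libraries of different groups share a mouse.

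When nerve terminals, glia or damaged cells release ATP, enzymes on cell surfaces take off its phosphates in steps. ENTPD1 (CD39) converts ATP and ADP to AMP, ENTPD2 acts mainly on ATP and leaves ADP, and NT5E (CD73) converts AMP to adenosine. Adenosine then acts on 4 G protein-coupled receptors, of which the products of Adora1 and Adora3 couple to inhibitory G proteins and lower cAMP, and those of Adora2a and Adora2b couple to stimulatory G proteins and raise it. The signal ends when the transporter ENT1, encoded by Slc29a1, carries adenosine into cells, where adenosine kinase (Adk) returns it to AMP or adenosine deaminase (Ada) turns it into inosine. At the neuromuscular junction adenosine formed from released ATP modulates transmitter release, and PSCs, the glia that cover the nerve terminal, respond to ATP and adenosine. Comparing the groups asks which of these steps each kind of sorted cell is equipped for at the RNA level.

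A column was present for 27 of the 36 libraries that the labels name, with 9 from PSCs, 8 from S100β-GFP+ cells and 10 from NG2-dsRed+ cells. Total counts per library were 5334916 to 9592875 in PSCs (median 7487157), 5221655 to 9411399 in S100β-GFP+ cells and 5712256 to 7918320 in NG2-dsRed+ cells. Levels are given as counts per 1000000 (CPM) after TMM normalization, and ratios and intervals of counts cover counting error only. Together, the genes Gm15564, Gm23935 and Lars2 held from 3.64% to 36.6% of the counts of PSC libraries, from 19.5% to 39.1% among S100β-GFP+ libraries and from 12.5% to 40.0% among NG2-dsRed+ libraries.

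Before the adenosine genes, the groups were checked against marker genes. Cspg4 averaged 689 ± 132 CPM (SD, n = 9) in PSCs and 665 ± 138 CPM (SD, n = 10) in NG2-dsRed+ cells, against 71.0 ± 42.3 CPM (SD, n = 8) in S100β-GFP+ cells. S100b averaged 255 ± 198 CPM in PSCs, 29.4 ± 10.1 CPM in S100β-GFP+ cells and 6.54 ± 4.90 CPM in NG2-dsRed+ cells. PSC libraries thus held both reporter genes at high levels, whereas S100b was 8.68-fold lower in the cells sorted on its promoter alone. The 10 Schwann lineage markers summed to 3336 to 4077 CPM in PSCs, to 671 to 2043 CPM in S100β-GFP+ cells and to 101 to 468 CPM in NG2-dsRed+ cells. For 9 of them a test was possible. EdgeR called 7 higher in PSCs than in the S100β-GFP+ group (22.9% of all genes tested) and 8 higher than in the NG2-dsRed+ group (20.9%). The 8 myelinating Schwann markers reached 2555 to 3476 CPM in PSCs, 1535 to 3691 CPM in S100β-GFP+ cells and 308 to 1075 CPM in NG2-dsRed+ cells.

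The S100β-GFP+ libraries also held markers of other cell types, so the group is named here by its reporter and not as Schwann cells. All 10 macrophage and leukocyte markers had a higher mean in them than in PSCs and than in NG2-dsRed+ cells. Their sum was 1233 to 11327 CPM against 36.0 to 571 CPM in PSCs and 14.5 to 74.5 CPM in NG2-dsRed+ cells. Some of the 10, such as Cx3cr1 (9 counts over PSC and 17 over NG2-dsRed+ libraries), could pass the filter on low counts only through S100β-GFP+ libraries. No test of these markers is therefore given. Lyz2 was the most abundant of them in all 3 groups, and Fcgr1 had 0 counts in every PSC library. The 10 fibroblast markers were all higher in S100β-GFP+ cells than in PSCs, as were 24.1% of all genes tested (sum 25096 to 54971 CPM against 1585 to 4646 CPM, led by Col3a1 in S100β-GFP+ cells). All 10 were also lower in PSCs than in NG2-dsRed+ cells, as were 23.1% of all genes tested (median log2 fold change of the 10 -2.76). NG2-dsRed+ libraries stood at 3285 to 25010 CPM, below all S100β-GFP+ libraries. Of them, replicate 2 alone (3285 CPM) lay within the range of the PSC libraries. The 6 erythroid markers, led by Hbb-bs, ran from 24.9 to 131310 CPM within the S100β-GFP+ group, from 121 to 7404 CPM in PSCs and from 472 to 11606 CPM in NG2-dsRed+ cells. No marker of these lists other than Fcgr1 was at 0 counts over a whole group.

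NG2-dsRed+ libraries were rich in vascular genes. The 12 pericyte and smooth muscle markers summed to 7498 to 16279 CPM there, led by Rgs5 (5322 CPM), against 1084 to 1784 CPM in PSCs, led by Cspg4, and 260 to 1741 CPM in S100β-GFP+ cells. All 12 were higher there than in S100β-GFP+ cells, as were 15.2% of all genes tested. Of the 12, 10 were higher there than in PSCs, as were 23.1% of all genes tested. Endothelial markers, led by Cdh5, summed to 1657 to 4032 CPM in NG2-dsRed+ cells, 186 to 817 CPM in PSCs and 144 to 3129 CPM in S100β-GFP+ cells. All 10 were lower in PSCs than in NG2-dsRed+ cells (23.1% of all genes tested). Satellite cell markers summed to 17.5 to 66.6 CPM in PSCs, 30.0 to 125 CPM in S100β-GFP+ cells and 33.8 to 101 CPM in NG2-dsRed+ cells. Muscle fibre markers, led by Acta1, summed to 176 to 1542, 208 to 660 and 175 to 686 CPM in the same order. Lymphocyte markers summed to at most 25.6 CPM in a library, with Cd8a at 0 counts in PSCs, and none of the 10 passed the filter on low counts. Chondrocyte and tendon markers summed to 172 to 1866 CPM in S100β-GFP+ cells and 139 to 519 CPM in NG2-dsRed+ cells. In PSCs they summed to 11.0 to 123 CPM in 8 libraries and to 4730 CPM in replicate 31, where Col2a1 alone stood at 3859 CPM.

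**Figure D1:**
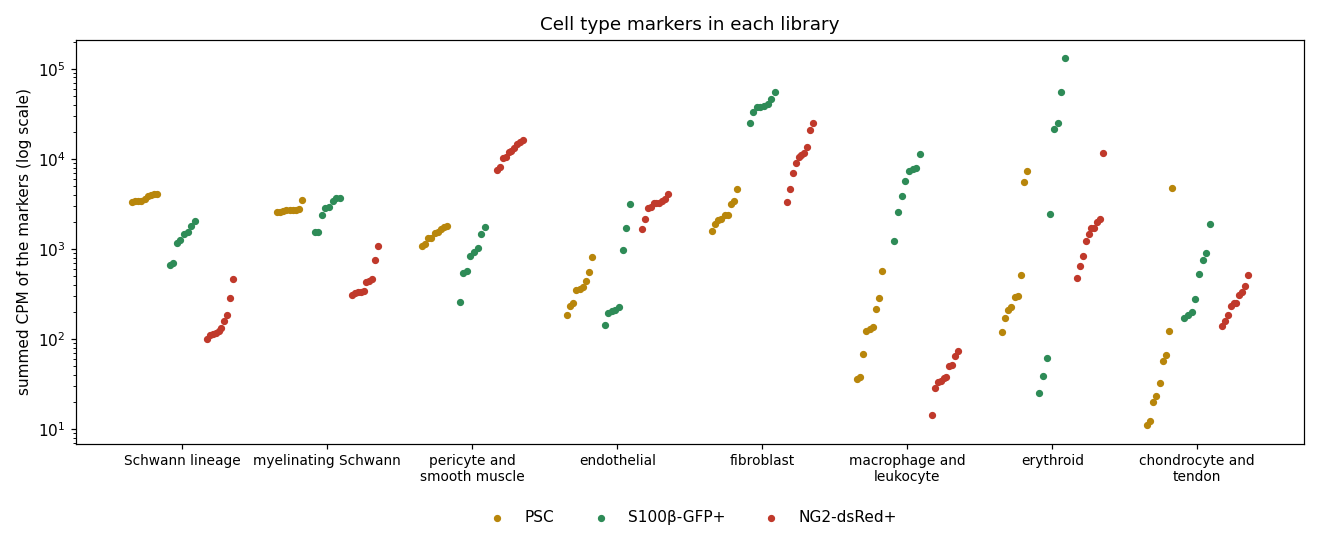
Summed CPM (log axis) of 8 lists of cell type markers, with 1 point per library, ordered by level within PSCs (n = 9), S100β-GFP+ cells (n = 8) and NG2-dsRed+ cells (n = 10). Macrophage and leukocyte markers of S100β-GFP+ libraries (1233 to 11327 CPM) lie above all PSC and NG2-dsRed+ libraries, and 1 PSC library stands at 4730 CPM of chondrocyte and tendon markers.

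Some libraries stood apart from the rest of their group. S100β-GFP+ replicates 14, 17 and 22 had endothelial marker sums of 970 to 3129 CPM against 144 to 228 CPM in the other 5, and macrophage and leukocyte sums of 1233 to 3854 CPM against 5729 to 11327 CPM. The same 3 were also apart in pericyte and smooth muscle markers (1029 to 1741 CPM against 260 to 930 CPM) and in satellite cell markers (63.3 to 125 CPM against 30.0 to 48.3 CPM). Replicate 22 also had counts on 38568 genes, where the median of its group was 23251. PSC replicate 18 had counts on 14616 genes, against 20203 or more in the other 8 PSC libraries. NG2-dsRed+ replicates 28 and 35 had fibroblast sums of 25010 and 20818 CPM against at most 13444 CPM in the other 8. Their endothelial sums (1657 and 2128 CPM) and pericyte and smooth muscle sums (8155 and 7498 CPM) were the lowest of the group. Calls that rest on S100β-GFP+ replicates 14, 17 and 22, or on PSC replicate 31, are given with and without them below. In sorted cells analysed in bulk, fewer cells of a type and less RNA per cell cannot be told apart, and this holds for each difference that follows. Marker genes of several cell types moved with the groups, and their part in the differences of the adenosine genes was not tested.

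Of the 10 adenosine genes, 8 passed the filter on low counts and 2 did not, namely Adora1 and Adora3. In the edgeR fit of all 15330 genes that passed, 6 of the 8 were lower in PSCs than in S100β-GFP+ cells at an adjusted p under 0.05 and 0 were higher, where 24.1% of all genes tested were called lower and 22.9% higher, 47.0% in either direction. Against NG2-dsRed+ cells 6 of the 8 were lower in PSCs and 1 was higher, where 23.1% of all genes were called lower and 20.9% higher, 44.0% in all. The same 6 genes, Adora2a, Adora2b, Entpd1, Entpd2, Ada and Slc29a1, had lower levels than both other groups, as did 14.4% of all genes, while 0 of the 8 were higher than in both, against 13.9% of all genes. Both comparisons use the same PSC libraries, so they are not independent of each other. Between S100β-GFP+ and NG2-dsRed+ cells 3 of the 8 were called, 2 higher and 1 lower in S100β-GFP+ cells, where 18.1% of all genes were called higher and 15.2% lower, 33.3% in all. For PSCs against S100β-GFP+ cells the 8 genes had a median log2 fold change of -1.98 (all genes 0.04), and for PSCs against NG2-dsRed+ cells of -2.02 (all genes 0.02).

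**Figure D2:**
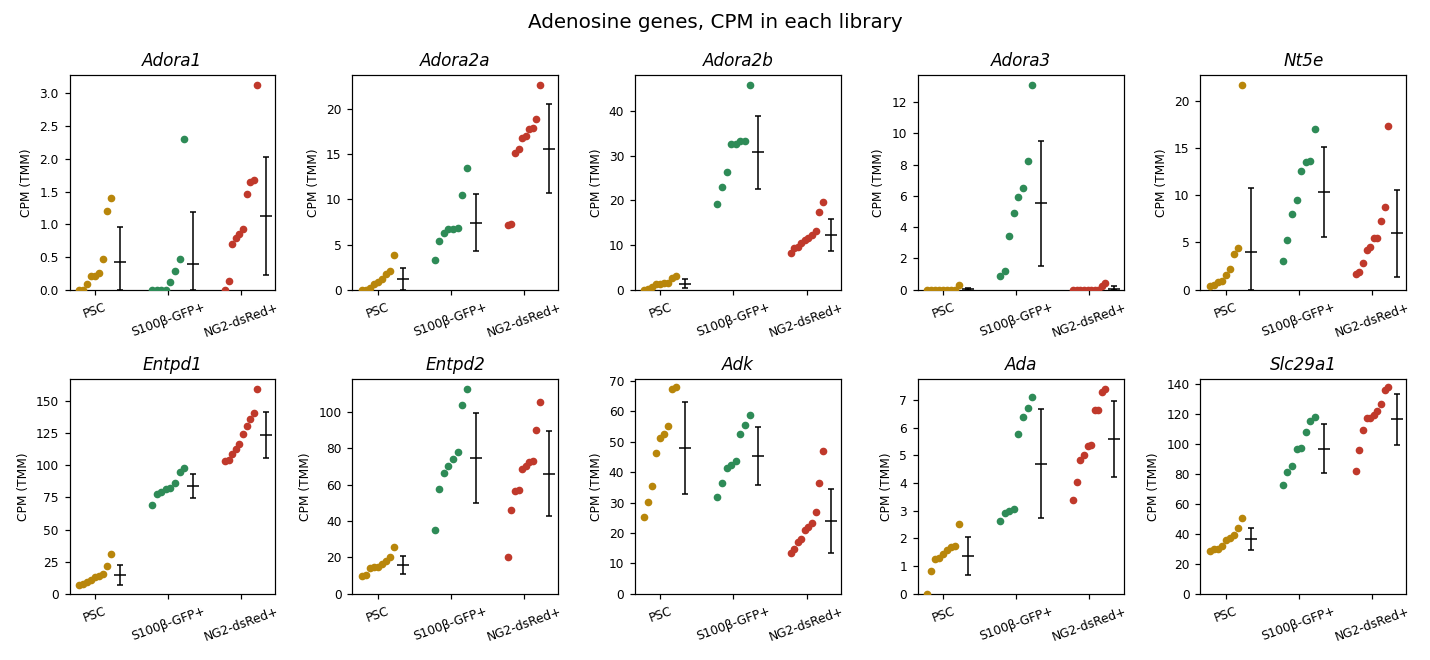
TMM-normalized CPM of the 10 adenosine genes, with 1 point per library (9 PSC, 8 S100β-GFP+ and 10 NG2-dsRed+ libraries, ordered by level within a group) and the mean ± SD beside them, the bar drawn no lower than 0. Entpd1, Adora2b, Ada and Slc29a1 of every PSC library lie below all libraries of both other groups, whereas Adk of PSCs spans 25.2 to 67.9 CPM and overlaps both.

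The A2 receptors, which couple to adenylyl cyclase, were the receptors with the most counts, and both were scarce in PSCs. Adora2a (ENSMUSG00000020178, chr10:75316877-75334784, plus strand, GRCm38) encodes the high-affinity A2 receptor, known for relaxing vessels and restraining immune cells. Its level in PSCs had a lowest value of 0, a median of 0.861 and a highest value of 3.86 CPM, with 2 of 9 libraries at 0 counts. In S100β-GFP+ cells it was 3.32, 6.69 and 13.5 CPM (lowest, median, highest), and in NG2-dsRed+ cells 7.12, 16.9 and 22.6 CPM. The NG2-dsRed+ replicates 28 and 35 had 7.30 and 7.12 CPM and the other 8 had 15.1 to 22.6 CPM, and a fit without both was not run. Every PSC library was below all NG2-dsRed+ libraries, and 8 of 9 were below all S100β-GFP+ libraries, the exception being replicate 31. The log2 fold change was -3.71 ± 0.49 (SE) against NG2-dsRed+ cells (13.1-fold lower, edgeR adjusted p = 3.44e-07) and -2.63 ± 0.49 against S100β-GFP+ cells (6.18-fold lower, adjusted p = 5.67e-05). S100β-GFP+ cells had 2.11-fold less Adora2a than NG2-dsRed+ cells, which missed the threshold (log2 fold change -1.08 ± 0.45, adjusted p = 0.064). That difference was called with DESeq2 (adjusted p = 0.0449), with limma-voom (adjusted p = 2.76e-04), without a filter on low counts (0.0426), with only the 2 groups in the fit (0.00227), with the share of Lars2, Gm23935 and Gm15564 as a term (0.0296) and without S100β-GFP+ replicate 17 (0.039), but not without replicates 14, 17 and 22 together, where the log2 fold change was -1.26 ± 0.54 (0.0769).

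Adora2b (ENSMUSG00000018500, chr11:62248984-62266453, plus strand) encodes the low-affinity A2 receptor, which responds when adenosine is abundant. PSC libraries had 0, 1.26 and 3.00 CPM (lowest, median, highest), S100β-GFP+ libraries 19.1, 32.6 and 45.7 CPM, and NG2-dsRed+ libraries 8.12, 11.4 and 19.6 CPM. The PSC libraries lay below all others, and 7 of 8 S100β-GFP+ libraries lay above all NG2-dsRed+ libraries. Adora2b had the largest difference of the 8 genes, 22.9-fold lower in PSCs than in S100β-GFP+ cells (log2 fold change -4.52 ± 0.40, adjusted p = 1.08e-10), and it was 9.14-fold lower than in NG2-dsRed+ cells (-3.19 ± 0.37, adjusted p = 3.84e-08). Of the 2 receptor genes in the edgeR fit, it was the one with more RNA in S100β-GFP+ than in NG2-dsRed+ cells (log2 fold change 1.32 ± 0.33, adjusted p = 0.00222). Mean levels were thus highest in different groups, in NG2-dsRed+ cells for Adora2a and in S100β-GFP+ cells for Adora2b.

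Adora3 (ENSMUSG00000000562, chr3:105870858-105908926, plus strand), the gene of the A3 receptor, which in rodents is known from mast cells, was found almost entirely in the S100β-GFP+ libraries. It had 290 counts over those 8 libraries, 3 counts over the 9 PSC libraries, all in replicate 20, and 5 counts over the 10 NG2-dsRed+ libraries. S100β-GFP+ libraries stood at 0.882, 5.40 and 13.1 CPM (lowest, median, highest), and 8 of 9 PSC and 8 of 10 NG2-dsRed+ libraries were at 0 counts. Each S100β-GFP+ library was above all PSC and NG2-dsRed+ libraries. The ratio of counts per 1000000 over each group was 111 for S100β-GFP+ cells over PSCs (95% interval 37.5 to 539) and 68.7 over NG2-dsRed+ cells (29.1 to 213), where the intervals cover counting error only and not the spread between mice. Adora3 did not pass the filter. With counts almost only in S100β-GFP+ libraries, it could pass a looser filter only through them, so no test of it is given. Within the S100β-GFP+ group replicates 14, 17 and 22 had 0.882 to 3.46 CPM and the other 5 had 4.88 to 13.1 CPM, and the same 3 replicates had the lowest sums of macrophage and leukocyte markers. Among these 3 the order was the opposite, with 0.882, 1.18 and 3.46 CPM of Adora3 (5, 5 and 21 counts) beside marker sums of 3854, 2570 and 1233 CPM in replicates 14, 17 and 22. Replicates 1, 3, 11, 27 and 33 had 13.1, 8.25, 6.51, 5.92 and 4.88 CPM of Adora3. Their marker sums were 7961, 11327, 7706, 7254 and 5729 CPM in the same order. Whether those markers and Adora3 come from the same cells was not tested. Adora3 shares 779 exon bases with Tmigd3 on the same strand, and Tmigd3 itself had 7 counts over the S100β-GFP+ libraries, so reads in the shared exons cannot be assigned with certainty.

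Adora1 (ENSMUSG00000042429, chr1:134199223-134235431, minus strand), which encodes the A1 receptor through which adenosine holds back transmitter release, was near the limit of detection in every group. It had 34 counts in all over the PSC libraries, 19 over the S100β-GFP+ libraries and 77 over the NG2-dsRed+ libraries. The levels were 0, 0.211 and 1.41 CPM (lowest, median, highest) in PSCs, 0, 0.0625 and 2.30 CPM in S100β-GFP+ cells and 0, 0.888 and 3.12 CPM in NG2-dsRed+ cells, and all groups overlapped. DESeq2 called none of the 3 comparisons (adjusted p between 0.205 and 0.967). In S100β-GFP+ cells 14 of the 19 counts were in replicate 22. Without S100β-GFP+ replicates 14, 17 and 22 Adora1 passed the filter, although the other 5 S100β-GFP+ libraries had at most 0.290 CPM. It could pass only through libraries of the other groups, so no test of it from that fit is given. Adora1 overlaps Mybph on the opposite strand over 1162 exon bases, and with the use of strand in counting not given in the sources used here, the reads of the 2 genes cannot be told apart with certainty.

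Of the enzymes that degrade extracellular nucleotides, Entpd1 and Entpd2 were several times lower in PSCs. Entpd1 (ENSMUSG00000048120, chr19:40612366-40741602, plus strand) encodes CD39, the dominant ectonucleotidase of vessels and leukocytes. It stood at 6.94, 13.1 and 30.9 CPM (lowest, median, highest) in PSCs, 68.8, 82.0 and 97.5 CPM in S100β-GFP+ cells and 103, 121 and 159 CPM in NG2-dsRed+ cells. The 3 groups did not overlap, with PSCs lowest and NG2-dsRed+ cells highest. Non-overlap of this kind was seen for 5 of the 8 genes between PSCs and S100β-GFP+ cells (15.5% of all genes tested), for 5 between PSCs and NG2-dsRed+ cells (13.9%) and for 1, Entpd1, between S100β-GFP+ and NG2-dsRed+ cells (11.6%). Entpd1 was 8.53-fold lower in PSCs than in NG2-dsRed+ cells (log2 fold change -3.09 ± 0.22, adjusted p = 1.34e-12) and 5.77-fold lower than in S100β-GFP+ cells (-2.53 ± 0.22, adjusted p = 7.35e-11). The smaller difference between S100β-GFP+ and NG2-dsRed+ cells (-0.56 ± 0.20, adjusted p = 0.0322) was lost with DESeq2 size factors (adjusted p = 0.0523), without S100β-GFP+ replicates 14, 17 and 22 (0.101), and on leaving out any 1 of 7 libraries, S100β-GFP+ replicates 1, 14, 22 and 27 and NG2-dsRed+ replicates 2, 15 and 35 (0.0501 to 0.0584). The log2 fold change itself moved little, to -0.52 without replicates 14, 17 and 22 and to between -0.60 and -0.51 on leaving out 1 library.

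Entpd2 (ENSMUSG00000015085, chr2:25395874-25401321, plus strand), whose product is known from glia and perivascular cells and favours ATP over ADP, stood at 9.76, 14.8 and 25.8 CPM in PSCs, 34.9, 72.0 and 113 CPM in S100β-GFP+ cells and 20.1, 69.5 and 106 CPM in NG2-dsRed+ cells. PSC libraries were all below the S100β-GFP+ libraries, and 7 of 9 were below all NG2-dsRed+ libraries. The difference was 4.67-fold against S100β-GFP+ cells (log2 fold change -2.22 ± 0.25, adjusted p = 1.66e-08) and 4.13-fold against NG2-dsRed+ cells (-2.05 ± 0.24, adjusted p = 4.96e-08). S100β-GFP+ and NG2-dsRed+ cells were not separated (0.18 ± 0.24, adjusted p = 0.617), and the sign turned without S100β-GFP+ replicates 14, 17 and 22 (-0.14, adjusted p = 0.739), which had a mean of 96.8 CPM against 61.3 CPM in the other 5. In NG2-dsRed+ cells replicates 28 and 35, with the highest fibroblast sums, had the most Entpd2 (106 and 89.9 CPM), and replicate 2, with the lowest, had 20.1 CPM. Entpd2 shares 612 exon bases with Npdc1 on the same strand. Npdc1 itself was not called in any of the 3 comparisons (on average 66.3 CPM in PSCs, 50.9 CPM in S100β-GFP+ cells and 54.0 CPM in NG2-dsRed+ cells), and whether reads of the shared exons add to Entpd2 was not tested.

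Nt5e (ENSMUSG00000032420, chr9:88327197-88372092, plus strand), the enzyme that completes the path from ATP to adenosine, was low in all groups, and its calls changed with single libraries and with the method. PSC libraries had 0.417, 1.56 and 21.6 CPM (lowest, median, highest), S100β-GFP+ libraries 3.00, 11.0 and 17.0 CPM and NG2-dsRed+ libraries 1.70, 5.03 and 17.3 CPM. Of the 9 PSC libraries, 6 were below all S100β-GFP+ libraries and 1, replicate 31, was above all libraries of both other groups. Over all libraries PSCs did not differ by the test from S100β-GFP+ cells (log2 fold change -1.37 ± 0.60, adjusted p = 0.063) or from NG2-dsRed+ cells (-0.59 ± 0.57, adjusted p = 0.428). Without replicate 31 the mean in PSCs went from 4.01 to 1.81 CPM, and Nt5e was lower than in S100β-GFP+ cells (-2.51, adjusted p = 1.52e-04) and than in NG2-dsRed+ cells (-1.73, adjusted p = 0.00413). The same replicate was the one with 4730 CPM of chondrocyte and tendon markers, and whether these belong together was not tested. Against S100β-GFP+ cells the difference was also called with DESeq2 (adjusted p = 0.0456), limma-voom with sample quality weights (3.18e-04), no filter on low counts (0.0447) and without S100β-GFP+ replicate 3 (0.045), and against NG2-dsRed+ cells with limma-voom (0.00534).

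The 3 genes of adenosine clearance did not move together. Slc29a1 (ENSMUSG00000023942, chr17:45585200-45599606, minus strand), the equilibrative transporter that takes adenosine across the membrane, stood at 28.2, 36.2 and 50.4 CPM in PSCs, 72.9, 96.9 and 118 CPM in S100β-GFP+ cells and 81.7, 118 and 138 CPM in NG2-dsRed+ cells. Every PSC library was below every other library. PSCs had 2.67-fold less than S100β-GFP+ cells (log2 fold change -1.41 ± 0.14, adjusted p = 7.65e-10) and 3.20-fold less than NG2-dsRed+ cells (-1.68 ± 0.13, adjusted p = 1.62e-11). Between the other groups it was not called (-0.26 ± 0.13, adjusted p = 0.13), although limma-voom (adjusted p = 0.0345) and the fit with the share of Lars2, Gm23935 and Gm15564 (0.0248) did call it. The antisense gene Gm17080 overlaps 275 of its exon bases and had at most 18 counts over a group.

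Adk (ENSMUSG00000039197, chr14:21052574-21448569, plus strand), adenosine kinase, differed from the other 7 genes in that its mean was not lowest in PSCs. Its levels were 25.2, 51.2 and 67.9 CPM in PSCs, 31.7, 43.1 and 59.0 CPM in S100β-GFP+ cells and 13.3, 21.5 and 46.9 CPM in NG2-dsRed+ cells. PSCs and S100β-GFP+ cells overlapped widely, and 5 of 9 PSC libraries and 3 of 8 S100β-GFP+ libraries were above all NG2-dsRed+ libraries. Adk was 2.00-fold higher in PSCs than in NG2-dsRed+ cells (log2 fold change 1.00 ± 0.22, adjusted p = 3.67e-04) and 1.89-fold higher in S100β-GFP+ than in NG2-dsRed+ cells (0.92 ± 0.22, adjusted p = 0.00159). Between PSCs and S100β-GFP+ cells the fitted difference was 0.08 ± 0.23, with a 95% interval from -0.37 to 0.52 on the log2 scale, and it was -0.01 without S100β-GFP+ replicates 14, 17 and 22. In PSCs and in S100β-GFP+ cells Adk was higher where Gm15564, Gm23935 and Lars2 took a smaller share of the counts. The 4 PSC libraries with a share of 3.64% to 9.66% had 52.5 to 67.9 CPM of Adk, and the 4 with 27.7% to 36.6% had 25.2 to 46.2 CPM, which lies within the range of NG2-dsRed+ libraries. The 3 S100β-GFP+ libraries with 19.5% to 22.5% had 52.6 to 59.0 CPM, and the 5 with 32.3% to 39.1% had 31.7 to 43.8 CPM. In NG2-dsRed+ cells replicates 28 and 35, with the lowest shares (12.5% and 19.3%), had the highest levels (46.9 and 36.6 CPM), but replicate 2, with the next share (22.6%), had 14.8 CPM. Replicates 28 and 35 also stood apart in fibroblast, endothelial and pericyte markers, and the part of those cells in the levels of Adk was not tested. With that share as a term in the fit, the log2 fold change of PSCs was 0.66 against NG2-dsRed+ cells (adjusted p = 0.00103) and -0.37 against S100β-GFP+ cells (adjusted p = 0.0732), so the direction of the latter, which was not called, depends on the setting.

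Ada (ENSMUSG00000017697, chr2:163726584-163750239, minus strand), the deaminase, had few counts in all groups. It stood at 0, 1.43 and 2.52 CPM in PSCs, 2.61, 4.40 and 7.10 CPM in S100β-GFP+ cells and 3.40, 5.34 and 7.38 CPM in NG2-dsRed+ cells. All PSC libraries lay below all others, by a small margin against S100β-GFP+ cells. Of the latter, replicates 14, 17, 22 and 33 had 5.76 to 7.10 CPM and the other 4 had 2.61 to 3.05 CPM. The difference was 3.35-fold against S100β-GFP+ cells (log2 fold change -1.74 ± 0.36, adjusted p = 2.19e-04, and -1.35 ± 0.42, adjusted p = 0.0102, without S100β-GFP+ replicates 14, 17 and 22) and 4.01-fold against NG2-dsRed+ cells (SE 0.35 on the log2 scale, adjusted p = 2.50e-05). Between S100β-GFP+ and NG2-dsRed+ cells it was not called (-0.26 ± 0.34, adjusted p = 0.61). PSC replicate 18, which had counts on the fewest genes, was the library with 0 counts of Ada, and it also had 0 counts of Adora2a and Adora2b.

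**Figure D3:**
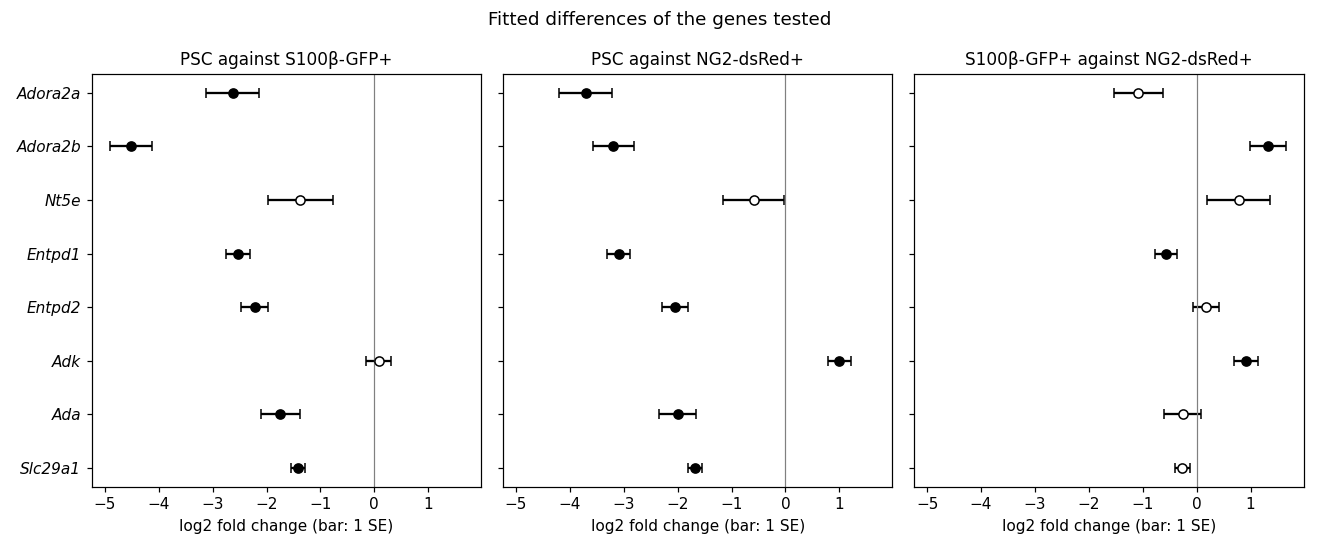
Fitted log2 fold changes ± 1 SE of the 8 adenosine genes that passed the filter, in the 3 comparisons, with filled points at an edgeR adjusted p under 0.05. In PSCs Adora2b lies at -4.52 against S100β-GFP+ cells and Adk at 1.00 against NG2-dsRed+ cells, and Nt5e is not called in any of the 3.

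Levels of different genes were compared per kb of exon. In PSCs the mean was highest for Slc29a1 (9.07 ± 1.82 CPM per kb, SD), Entpd2 (7.53 ± 2.34) and Adk (5.62 ± 1.78), followed by Entpd1 (2.60 ± 1.37). Of the first 3, neighbours overlap in their ranges of mean ± SD. Adora2b, Ada, Nt5e and Adora2a came next at 0.718 down to 0.386 CPM per kb, and their spreads overlap. In S100β-GFP+ cells the order began with Entpd2 (35.1 ± 11.6), Slc29a1 (24.2 ± 4.05), Adora2b (16.7 ± 4.39) and Entpd1 (15.0 ± 1.67). In NG2-dsRed+ cells it began with Entpd2 (31.0 ± 11.0), Slc29a1 (29.0 ± 4.26) and Entpd1 (22.1 ± 3.26), and Adora2b (6.64 ± 1.97) and Adora2a (5.10 ± 1.59) followed. Per kb, Adk thus ranked 3 of 10 in PSCs, 5 of 10 in S100β-GFP+ cells and 6 of 10 in NG2-dsRed+ cells. In the latter its level (2.81 ± 1.23) was not resolved from that of Ada (2.79 ± 0.68), which ranked next. Taken over the 10 genes, the summed level was 106 to 172 CPM in PSCs, 318 to 411 CPM in S100β-GFP+ cells and 305 to 420 CPM in NG2-dsRed+ cells, and the PSC libraries did not overlap the others.

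A list of other enzymes of the cell surface or the secretory path, most of which act on nucleotides, had 15 genes in the table, of which 10 were tested. In PSCs 5 were lower and 1 was higher than in S100β-GFP+ cells, where 24.1% of all genes were called lower and 22.9% higher. Against NG2-dsRed+ cells 5 were also lower and 1 higher in PSCs, where 23.1% were called lower and 20.9% higher. The medians of the log2 fold change were -1.02 and -1.16 (all genes 0.04 and 0.02). The gene that was higher in both cases was Enpp1, which splits ATP into AMP and pyrophosphate, so that it feeds NT5E without ENTPD1. Enpp1 was the most abundant of the 15 in PSCs (127 CPM, against 5.77 CPM in S100β-GFP+ and 33.4 CPM in NG2-dsRed+ cells), with log2 fold changes of 4.46 ± 0.25 (adjusted p = 3.17e-14) and 1.93 ± 0.21 (adjusted p = 6.86e-09). At the other end was Dpp4, a surface peptidase that does not act on nucleotides but is counted in the list, with 0.706 CPM in PSCs, 157 CPM in S100β-GFP+ cells and 8.50 CPM in NG2-dsRed+ cells (log2 fold changes -7.81 ± 0.43 and -3.61 ± 0.39, adjusted p = 1.93e-14 and 7.99e-09). Dpp4 was the most abundant of the list in S100β-GFP+ cells, and Cd38, an ectoenzyme that consumes NAD, was the most abundant in NG2-dsRed+ cells (77.0 CPM). Between S100β-GFP+ and NG2-dsRed+ cells 4 were higher and 3 lower in S100β-GFP+ cells (18.1% and 15.2% of all genes). The lowest log2 fold change was that of Enpp1 (-2.53 ± 0.23, adjusted p = 7.20e-10), and the highest that of Acpp, a phosphatase that can also hydrolyse AMP. Acpp averaged 6.43 CPM in S100β-GFP+ cells, 0.192 CPM in NG2-dsRed+ cells and 0.0282 CPM in PSCs. It passed the filter only through the S100β-GFP+ libraries, so no test of it is given. The 5 genes lower in PSCs include it in both comparisons, and so do the 4 higher in S100β-GFP+ than in NG2-dsRed+ cells. Entpd8 had 0 counts over the PSC and over the NG2-dsRed+ libraries, which allows up to 0.0456 and 0.0440 CPM.

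Inside the cell, 20 of 22 genes of adenosine and AMP metabolism were tested. Of these, PSCs had 10 lower and 3 higher than S100β-GFP+ cells, where 24.1% of all genes were called lower and 22.9% higher. Against NG2-dsRed+ cells 9 were lower and 4 higher in PSCs, where 23.1% were called lower and 20.9% higher among all genes. The medians were -0.62 and -0.29 (all genes 0.04 and 0.02). Ampd3, an AMP deaminase that draws AMP away from adenosine formation, had the highest log2 fold change in both, 2.12 ± 0.26 (adjusted p = 7.71e-08) and 1.63 ± 0.24 (adjusted p = 1.63e-06), with 55.9 CPM in PSCs, 12.9 CPM in S100β-GFP+ cells and 18.1 CPM in NG2-dsRed+ cells. Xdh, which carries purines on to uric acid, had the lowest, -5.47 ± 0.46 (adjusted p = 4.61e-11) and -2.85 ± 0.41 (adjusted p = 1.36e-06), and was the most abundant of the list in S100β-GFP+ cells at 127 CPM. Between S100β-GFP+ and NG2-dsRed+ cells 9 were higher in S100β-GFP+ cells and 1, Mtap, was lower (-0.82 ± 0.17, adjusted p = 2.28e-04), where 18.1% and 15.2% of all genes were called. Ahcyl1 was the most abundant in PSCs (71.0 CPM) and in NG2-dsRed+ cells (89.0 CPM) and was not called in any comparison.

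Of the 6 other nucleoside transporters 3 were tested. Slc29a3, an equilibrative transporter of lysosomes and mitochondria, was lower in PSCs than in S100β-GFP+ cells (16.7 against 51.5 CPM, log2 fold change -1.63 ± 0.23, adjusted p = 1.14e-06) and was not called against NG2-dsRed+ cells (0.39 ± 0.22, adjusted p = 0.158). The concentrative transporter Slc28a2 was lower in PSCs than in both, with 5.73 CPM in PSCs, 16.7 CPM in S100β-GFP+ cells and 34.6 CPM in NG2-dsRed+ cells (-1.55 ± 0.43 and -2.61 ± 0.42, adjusted p = 0.0035 and 8.45e-06). Slc29a2, the second equilibrative transporter of the plasma membrane, stayed at 1.62 to 2.09 CPM on average and was not called.

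Downstream of the receptors, 26 of 28 genes of G protein alpha subunits, adenylyl cyclases and cAMP phosphodiesterases were tested. PSCs had 10 of them lower and 7 higher than S100β-GFP+ cells, where 24.1% of all genes were called lower and 22.9% higher. Against NG2-dsRed+ cells PSCs had 14 lower and 4 higher, where 23.1% were called lower and 20.9% higher among all genes. The medians were -0.62 and -0.72 (all genes 0.04 and 0.02). Gnai2, the inhibitory alpha subunit to which A1 and A3 receptors can couple, was the most abundant of the list in each group (295 CPM in PSCs, 505 CPM in S100β-GFP+ cells and 621 CPM in NG2-dsRed+ cells) and was lower in PSCs than in both. The phosphodiesterase gene Pde4d had the highest log2 fold change in PSCs in both comparisons (2.65 ± 0.27 against S100β-GFP+ cells, adjusted p = 1.95e-09, and 2.46 ± 0.24 against NG2-dsRed+ cells, adjusted p = 1.79e-09). The lowest were the adenylyl cyclase gene Adcy7 against S100β-GFP+ cells (4.63 against 105 CPM, -4.49 ± 0.32, adjusted p = 1.59e-12) and the phosphodiesterase gene Pde3a against NG2-dsRed+ cells (7.82 against 199 CPM, -4.66 ± 0.35, adjusted p = 6.46e-12). The sum of the 28 genes was 847 to 986 CPM in the 4 PSC libraries with the smallest share of counts on Gm15564, Gm23935 and Lars2 and 1355 to 1705 CPM in the 4 with the largest, which reaches the range of S100β-GFP+ libraries (1423 to 2034 CPM). NG2-dsRed+ replicates 28 and 35 had the lowest sums of their group (1467 and 1650 CPM against 2004 CPM or more). Between S100β-GFP+ and NG2-dsRed+ cells 6 were higher and 11 lower in S100β-GFP+ cells (18.1% and 15.2% of all genes), from Pde3b (3.17 ± 0.57, adjusted p = 5.15e-05) to Pde8b (-4.70 ± 0.40, adjusted p = 1.61e-10).

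For each of the 8 genes, the tested genes with the most similar profile over the 27 libraries were found by the root-mean-square difference of centred log2 CPM, where a smaller value is closer. Slc29a1 was followed most closely, by Shc1 (0.27) and Phactr2 (0.29), and Adk by Uxs1 (0.31) and Tmem167 (0.32). Ada was closest to Myo1e (0.42) and Mospd2 (0.45), Entpd2 to Bace2 (0.43) and Sdc2 (0.44), and Entpd1 to Sik1 (0.46) and Errfi1 (0.51). Adora2b lay nearest to Twist1 (0.50) and Irak3 (0.63), and Adora2a to Fam43a (0.61) and Swap70 (0.66). The values for Nt5e were the largest, with Slc7a5 at 0.79 and Wnt9a at 0.87. Twist1 averaged 0.900 CPM in PSCs, 24.8 CPM in S100β-GFP+ cells and 12.0 CPM in NG2-dsRed+ cells.

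The promoters of the genes were read from a RefSeq table (GRCm38.p6), which gives 250 bases before and 50 after each start, and 9 of the 10 genes had at least 1 entry, 19 entries in all. Adora2a had none. They were searched on both strands for TGACGTCA (the cAMP response element), ACGTG (the core of the hypoxia response element) and GGGCGG (the GC box), which are held by 1.79%, 19.6% and 35.7% of all 32851 promoters of the table. TGACGTCA was in 0 of the 19 entries, ACGTG in 5 of 19 (Adora1, Entpd2 and Slc29a1) and GGGCGG in 12 of 19, from 7 of the 9 genes. The sequences run 5′ to 3′ on the strand of the gene with matches in capitals, and CCGCCC and CACGT are matches on the other strand. They belong to Adora2b, Entpd2 and Entpd1, which had less RNA in PSCs than in either other group, and to Adk, which did not. The entry of Adora2b (chr11:62248734-62249033, plus strand) holds 6 matches to GGGCGG, that of Entpd2 (chr2:25395624-25395923, plus strand) 3 matches to GGGCGG and 2 to ACGTG, 1 of which overlaps a GGGCGG, the upstream entry of Entpd1 (chr19:40612116-40612415, plus strand) 0 matches, and the upstream entry of Adk (chr14:21052324-21052623, plus strand) 4 matches to GGGCGG. A match describes these letters only, and genes lower in PSCs occur both with and without GC boxes.
Adora2b: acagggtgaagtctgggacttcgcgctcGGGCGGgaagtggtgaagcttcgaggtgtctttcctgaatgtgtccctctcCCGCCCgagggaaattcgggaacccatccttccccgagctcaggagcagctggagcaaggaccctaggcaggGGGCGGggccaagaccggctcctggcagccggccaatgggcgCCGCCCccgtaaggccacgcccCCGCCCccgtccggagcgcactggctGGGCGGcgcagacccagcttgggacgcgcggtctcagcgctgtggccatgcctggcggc
Entpd2: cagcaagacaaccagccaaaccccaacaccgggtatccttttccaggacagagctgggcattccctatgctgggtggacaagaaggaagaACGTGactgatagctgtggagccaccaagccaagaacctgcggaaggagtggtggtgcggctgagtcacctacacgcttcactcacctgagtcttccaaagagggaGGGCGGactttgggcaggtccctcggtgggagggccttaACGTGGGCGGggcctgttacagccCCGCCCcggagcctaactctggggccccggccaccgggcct
Entpd1: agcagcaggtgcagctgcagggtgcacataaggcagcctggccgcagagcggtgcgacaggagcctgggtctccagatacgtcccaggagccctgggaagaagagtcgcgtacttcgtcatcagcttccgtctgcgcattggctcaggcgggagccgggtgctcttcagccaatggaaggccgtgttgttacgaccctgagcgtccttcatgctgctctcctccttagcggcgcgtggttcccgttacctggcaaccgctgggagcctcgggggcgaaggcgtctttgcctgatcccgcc
Adk: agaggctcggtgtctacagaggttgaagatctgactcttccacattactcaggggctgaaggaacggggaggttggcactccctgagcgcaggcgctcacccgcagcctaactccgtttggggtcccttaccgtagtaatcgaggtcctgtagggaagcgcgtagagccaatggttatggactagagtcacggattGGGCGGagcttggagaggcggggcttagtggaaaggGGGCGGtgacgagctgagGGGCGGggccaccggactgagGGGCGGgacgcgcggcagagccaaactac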

How the data were processed

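The table of raw counts per gene was used as deposited. According to the authors, reads were trimmed, aligned with HISAT2 to GRCm38 and counted with HTSeq. Versions, annotation and use of strand were not stated. Of 36 labelled libraries 27 have a column. The design text of the series names 7 S100β-GFP+ replicates, and 8 have a column.

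Genes were filtered with filterByExpr (minimum count 10), leaving 15330, scaled by TMM and tested in 1 edgeR 4.0.16 quasi-likelihood fit of all 27 libraries, with Benjamini-Hochberg adjusted p under 0.05 as a call (R 4.3.3). The SE of a log2 fold change was taken as its size over the root of the F statistic. CPM use the TMM library sizes. Positions and exon lengths come from GENCODE M21, which holds 99.56% of the identifiers. DESeq2 1.42.0 and limma 3.58.1 were run as alternatives.

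The 10 genes, the lists of related genes and markers and the settings were fixed before the data were examined here, but were chosen with earlier results of these data known. From each list of related genes the text names the genes with the highest and lowest fold change and the most abundant. It also names the 2 tested genes nearest in profile (log2 CPM, prior count 2, centred) to each adenosine gene, the markers, the reporter genes S100b and Cspg4, genes overlapping a member of the 10, and Lars2, Gm23935 and Gm15564. Others named with them were chosen after their values were seen. Pnp is not in the table, and Acp3 is present as Acpp.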

Additional observations from a re-analysis of the deposited data

Results flagged for a closer look

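In a group of 8 to 10 libraries, 1 library was far from the others by Dixon's test for 4 of 30 groups of the adenosine genes and for 9 of 33 groups of marker sums. Chance flags about 1 in 20 groups. No explanation was tested for any of them.

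Among the adenosine genes, Nt5e stood at 21.597 CPM in PSC replicate 31 and at 17.341 CPM in NG2-dsRed+ replicate 28. Adora1 stood at 2.304 CPM in S100β-GFP+ replicate 22, and Adora3 at 0.28692 CPM in PSC replicate 20, the PSC library that holds all 3 counts.

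Among the marker sums of PSCs, replicate 31 stood apart in chondrocyte and tendon markers (4730.4 CPM), replicate 18 in macrophage and leukocyte markers (571.18 CPM) and in muscle fibre markers (1541.5 CPM), replicate 34 in myelinating Schwann markers (3476.4 CPM) and replicate 36 in lymphocyte markers (9.4731 CPM). In S100β-GFP+ cells, replicate 1 stood apart in chondrocyte and tendon markers (1866.4 CPM) and replicate 17 in erythroid markers (131310 CPM). In NG2-dsRed+ cells, replicate 2 stood apart in Schwann lineage markers (468.23 CPM) and in erythroid markers (11606 CPM).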

How the results depend on the processing

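The log2 fold changes of the adenosine genes kept their side of the threshold, and where called their direction, in 147 combinations of gene, comparison and setting. In 11 a call was gained, in 2 a call was lost, and in 0 a called change reversed. Leaving out 1 library at a time, 421 stayed on their side of the threshold, 4 gained a call, 7 lost it and 0 reversed. Mean levels of a gene in a group moved by less than 1 SD in 46 cases and by more in 14.

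Without a filter on low counts, 16556 genes were called between PSCs and S100β-GFP+ cells (7198 with it) and 10586 between S100β-GFP+ and NG2-dsRed+ cells (5099 with it), out of 44705 tested. Between PSCs and NG2-dsRed+ cells the number was 8101 (6743 with it). Genes with as few as 3 counts in total were among those called. Between S100β-GFP+ and NG2-dsRed+ cells, 5 of the adenosine genes were called with DESeq2, without the filter, with limma-voom and with the share of Lars2, Gm23935 and Gm15564 as a term, against 3 in the fit reported. Of all genes 6470, 10586, 7026 and 5913 were called in these settings, against 5099. The DESeq2 count also covers genes that had not passed the filter, so the test and the genes tested changed at once. In the first 2 of these settings Adora2a was gained, and 1 of the 5 was Adora3. In the last 2 Adora2a and Slc29a1 were gained. Adora3 had not passed the filter and has counts almost only in S100β-GFP+ libraries. With only the 2 groups in the fit 4 were called (5895 of all genes), and with DESeq2 size factors in edgeR 2 (5074). Without S100β-GFP+ replicates 14, 17 and 22 the number was also 4 (5522), and Entpd1 was lost. These 4 include Adora1 and Adora3, which then passed the filter with few counts in 1 of the 2 groups. Why the other calls changed was not tested.

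Leaving out 1 library at a time gave 6825 to 7918 genes and 6 to 7 adenosine genes for PSCs against S100β-GFP+ cells, 6315 to 7412 and 7 to 8 for PSCs against NG2-dsRed+ cells, and 4617 to 5274 and 2 to 4 for S100β-GFP+ against NG2-dsRed+ cells. No paired analysis was possible because the labels do not say which libraries share a mouse, so the fits treat all libraries as independent. Depth limits Adora1 and Adora3 most, with 34 and 3 counts over all PSC libraries.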
